A study of Mus musculus with 4 samples.

Results

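Eph receptors, ephrins, Slits, Robo receptors, netrins and netrin receptors were examined as a set of 36 axon guidance genes in embryonic mouse neuroretina with and without a Cre transgene directed at Lhx2. The genes were taken by symbol, and a gene was measured where a transcript cluster, the group of array probes summarised together, was assigned to that symbol alone. This gave 34 of the 36 genes among 20252 genes tested. Ephb2 had no cluster listed under its symbol, and the one cluster listed for Ephb6 is shared with Mon2, so neither is given a value as a gene. The series is named for genes regulated by Lhx2, a LIM-homeodomain transcription factor required for eye formation, in early retinal progenitors. RNA from neuroretina, the neural layer of the eye, of CD-1 mice at embryonic day 13.5 was hybridised to Affymetrix whole-transcript arrays. The 2 knockout arrays carried Chx10-Cre;Lhx2 lox/lox, and the 2 control arrays carried Lhx2 lox/lox, so both genotypes have loxP-flanked Lhx2 alleles. Only the knockout has the transgene, which directs Cre to retinal progenitors. An effect of Cre itself and an effect of losing Lhx2 therefore cannot be told apart. The labels do not say whether replicates came from separate embryos, litters or pools and p-values therefore reflect only how far these 4 arrays scatter, which could be technical scatter.

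Axons find their way by reading cues on cells and in the matrix. Ephrins are ligands bound to the cell surface and Eph receptors are tyrosine kinases, and contact between them signals into both cells and most often repels. In the developing retina EphA and ephrin-A proteins form opposing nasal and temporal gradients, EphB and ephrin-B proteins form dorsal and ventral ones, and these gradients order the projection to the brain. Slits are secreted proteins that repel axons carrying Robo receptors, and Robo3, an unusual member of that family, lets axons cross the midline in hindbrain and spinal cord. Netrins attract through Dcc and repel through Unc5 receptors, and netrin-1 with Dcc steers ganglion cell axons out of the eye at the optic disc.

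Robo3 and Epha3 were the only members of the 34 to pass the test of genotype, both higher in the knockout, and none was lower past that test. Their RefSeq promoter windows, each 300 bases long and spanning a transcript start, are shown because these are the genes that changed. They are read 5′ to 3′ on the gene's strand in build GRCm38.p6, with the homeodomain core TAATTA in capitals, a palindrome and so the same on both strands. The Robo3 window is chr9:37433126-37433425, minus strand, and the Epha3 window is chr16:63864126-63864425, minus strand.
Robo3: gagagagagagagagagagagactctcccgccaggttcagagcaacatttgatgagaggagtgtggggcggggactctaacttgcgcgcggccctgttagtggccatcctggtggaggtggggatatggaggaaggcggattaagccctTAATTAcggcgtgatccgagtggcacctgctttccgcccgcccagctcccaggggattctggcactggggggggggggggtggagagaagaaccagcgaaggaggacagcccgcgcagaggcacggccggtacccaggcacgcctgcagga
Epha3: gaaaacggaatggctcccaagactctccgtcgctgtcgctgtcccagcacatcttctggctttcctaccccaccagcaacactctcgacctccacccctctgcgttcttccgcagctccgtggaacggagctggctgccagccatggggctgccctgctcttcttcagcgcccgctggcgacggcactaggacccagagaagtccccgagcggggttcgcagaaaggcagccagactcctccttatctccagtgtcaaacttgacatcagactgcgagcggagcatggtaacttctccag
In the Robo3 window the core occurs once, its first base 101 bases before the transcript start of that window, at 37433175. The annotated Robo3 gene reaches farther, to 37433436, so this core lies inside the gene's annotated extent and not upstream of it. In the Epha3 window, whose start of 63864175 is also the end of the annotated gene, the core occurs 0 times. Among the guidance genes 31 matched the RefSeq promoter table, with 36 windows, and 3 windows (8.33%) held the core, those of Efna1, Epha5 and Robo3. Over all promoter windows of the same length 1738 of 32851 (5.29%) held it. A match is a run of letters and says nothing here about binding.

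Values below are log2 signals after each array was centred on its median over the genes tested, and differences are knockout minus control on that scale, with their standard errors (SE) from limma. The test was limma's, two-sided, with Benjamini-Hochberg adjustment over all 20252 genes at 0.05. Across all genes 52 (0.257%) were called higher and 66 (0.326%) were called lower. Before centring, the median signal of all transcript clusters was 2.85 and 3.46 on knockout arrays 1 and 2 and 2.97 and 3.53 on control arrays 1 and 2, so level followed replicate number. Pearson's r across genes was 0.967 between the knockout arrays and 0.978 between the control arrays, and across genotypes it ran from 0.947 to 0.966. Lhx2 itself gave 6.53 and 6.27 in the knockout arrays and 6.62 and 6.31 in the control arrays, and the groups overlap. The exons its cluster covers are not known here, so this signal does not check the labels. A signal below the 75th percentile of all clusters on its array is called dim here, since it may not lie above background.

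Of the neuroretina's own markers, 11 of 12 listed retinal progenitor genes were measured. Among these 3 were called lower, against 0.326% of all genes, and 0 higher, against 0.257%. Their summed linear signal was 2181 and 2247 in the knockout arrays and 6574 and 6555 in the control arrays. The 16 measured of 17 listed ganglion cell and young neuron genes had 0 calls and a median difference of 0.03. Their sums were 4324 and 10377 in the knockout arrays and 5974 and 8999 in the control arrays. Tubb3 weighs heavily in these sums, with log2 signals of 9.46 and 12.03 in the knockout arrays and 10.21 and 12.03 in the control arrays. Of the 11 measured genes listed for hypothalamus and forebrain, 9 were called higher, against 0.257% of all genes. The 11 genes summed to 1051 and 2245 in the knockout arrays and 130.0 and 115.8 in the control arrays. The marker lists were drawn up with earlier results of these data known. Periocular mesenchyme genes (11 of 12 measured, 0 calls) summed to 2813 and 475 in the knockout arrays and 234 and 231 in the control arrays. Retinal pigment epithelium genes (11 measured, 0 calls) summed to 1381 and 527 in the knockout arrays and 205 and 406 in the control arrays. In bulk tissue, fewer cells of a type and less RNA per cell cannot be told apart. The part of these tissues in the results on guidance genes was not tested.

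Over the 34 measured genes the median difference was 0.22, against -0.14 over all genes tested. Taken by replicate number, the median was 0.23 for replicate 1 and 0.24 for replicate 2. There were 25 positive and 9 negative differences, where all 20252 genes tested had 5608 positive and 14644 negative. The sign was the same within both replicate numbers for 21 of the 34, and for 14494 of the 20252. Both knockout arrays lay above both control arrays for 14 genes (41.2%), where 10.1% of all genes did so. They lay below for 4 genes (11.8%), where 35.1% of all genes did so, and 16 genes overlapped. At an unadjusted limma p of 0.05, 10 genes were higher, against 3.6% of all genes, and 3 were lower, against 7.84% of all genes. These all-gene shares depend on the scale: on the deposited scale 9.63% of all genes lay above and 10.2% below, with 16 and 5 members. After quantile normalization 18.99% of all genes lay above and 23.2% below, with 17 and 3 members, and after centring on all transcript clusters 23.3% lay above and 15.8% below, with 18 and 2 members. The members were listed with results of these arrays known, and the counts are a description of them.

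**Figure D1:**
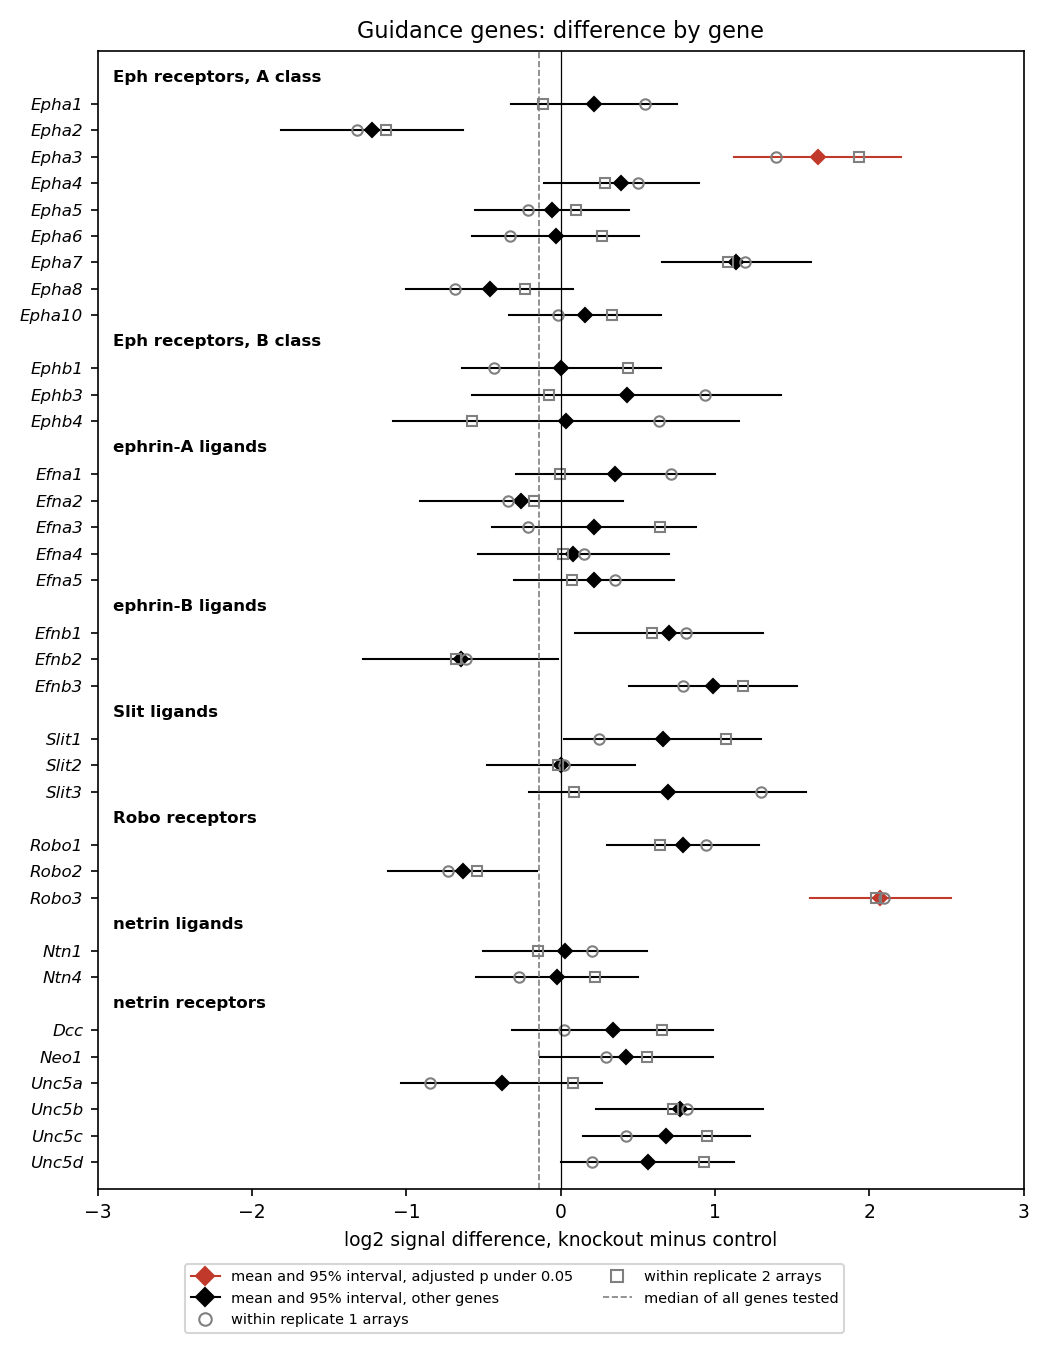
Differences for the 34 measured guidance genes, knockout minus control in log2 signal on the horizontal axis, with genes grouped by role. Diamonds and lines are the mean difference and its 95% interval, circles and squares the differences within replicate 1 and replicate 2 arrays, and the dashed line the median of all genes at -0.14. Red marks Robo3 (2.07) and Epha3 (1.66), and Epha2 (-1.22) lies farthest to the left.

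Among the 3 Robo receptors, the genes that read Slits, Robo3 rose, Robo1 leaned higher and Robo2 leaned lower. Robo3 gave 5.32 and 5.21 in the knockout arrays, against 3.22 and 3.17 in the control arrays. Arrays of a genotype were within 0.11 of each other and the genotypes were far apart, with both control signals dim. The difference was 2.07 (SE 0.19, 95% interval 1.61 to 2.53, adjusted p = 0.0152 by limma), 2.10 within replicate 1 and 2.04 within replicate 2. The call was lost with the replicate block (adjusted p = 0.0516 by limma), quantile normalization (0.0919) and centring on all clusters (0.105). Because the control signals are dim, the difference is also given as a bound, in which the knockout mean was at least 1.91-fold above the 75th percentile of clusters on the control arrays.

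Robo1, a main Slit receptor on growing axons, gave 5.80 and 5.58 in the knockout arrays and 4.86 and 4.94 in the control arrays. Its groups do not overlap, yet the difference of 0.79 (SE 0.21) did not pass, with adjusted p = 0.185 by limma. Robo2, the Slit receptor through which mouse ganglion cell axons are kept on course, ran the other way. It gave 5.30 and 5.45 in the knockout arrays and 6.03 and 5.99 in the control arrays, again without overlap. Its difference was -0.64 (SE 0.20, adjusted p = 0.280 by limma). Of all genes, 10.1% lay above and 35.1% below without overlap on this scale, so lying below without overlap is common by itself. On the deposited scale 10.2% of all genes lay below. The unadjusted p of Robo2 was 0.0173 by limma, and 7.84% of all genes were lower at 0.05.

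The Slits, their ligands, had 0 calls among 3 genes. Slit1, made in the mouse retina and around the optic chiasm, gave 6.27 and 6.88 in the knockout arrays and 6.02 and 5.81 in the control arrays. The groups do not overlap, but the difference of 0.66 (SE 0.27, adjusted p = 0.423 by limma) came mostly from the second knockout array, at 0.25 within replicate 1 and 1.07 within replicate 2. Slit2, the Slit that acts with Slit1 in guiding ganglion cell axons in mice, was level on all 4 arrays, with 6.12 and 6.14 in the knockout and 6.10 and 6.15 in the control. Its difference of 0.00 has a 95% interval of -0.48 to 0.48. Slit3 gave 4.70 and 3.50 in the knockout arrays and 3.40 and 3.42 in the control arrays, so only the first knockout array stood out. Its difference was 0.69 (SE 0.37, adjusted p = 0.558 by limma), and both control signals were dim. Without the second knockout array the difference was 1.29 (adjusted p = 0.0101 by limma), but that fit holds 1 knockout array, the high one, and takes its spread from the control arrays and from other genes.

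**Figure D2:**
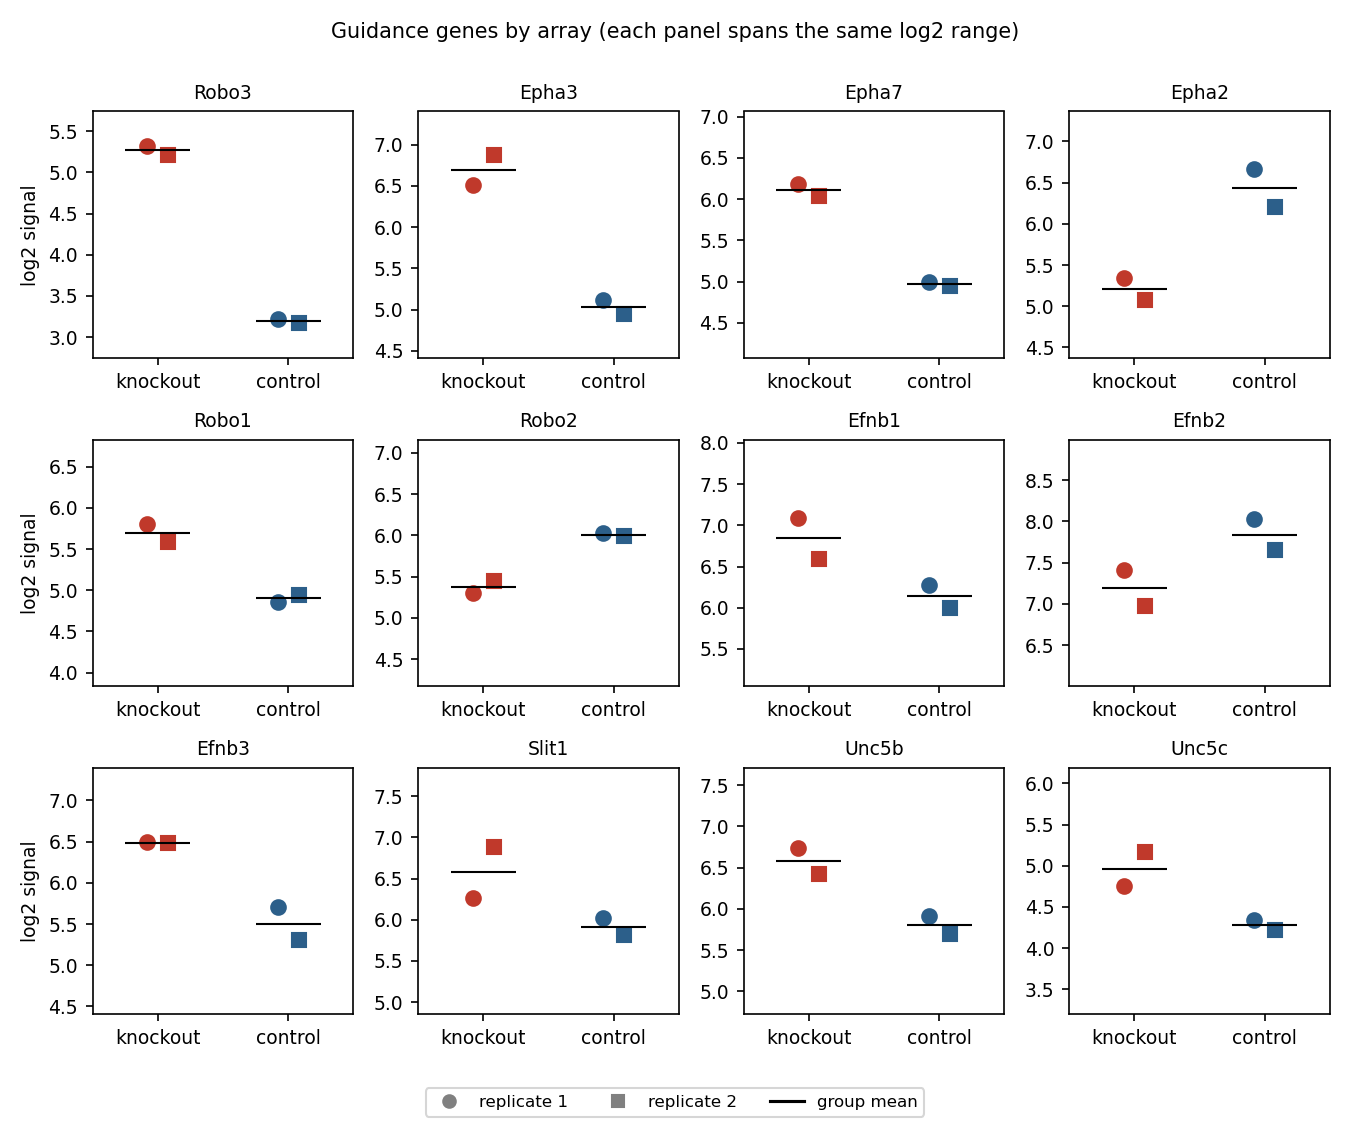
Log2 signal of 12 guidance genes on each array, knockout on the left and control on the right of each panel, with lines at the group means. Circles are replicate 1 and squares replicate 2, and all panels span the same log2 range. The 12 genes were picked from the members whose groups do not overlap (14 above and 4 below control), so no panel shows overlap. The 16 members that overlapped are not shown. Of all genes, 10.1% lay above and 35.1% below without overlap. The knockout arrays lie above the control arrays except for Epha2, Robo2 and Efnb2.

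EphA receptors bind mainly ephrin-A ligands, and 9 were measured. Of these 1 (11.1%) was called higher, against 0.257% of all genes, and 0 lower, against 0.326%. Their median difference was 0.16, against -0.14 over all genes tested. Epha3, one of the receptors that in chick retina form the temporal-high gradient, gave 6.51 and 6.87 in the knockout arrays, against 5.11 and 4.94 in the control arrays. All 4 signals were above the dim level and the groups lie well apart. The difference was 1.66 (SE 0.23, 95% interval 1.12 to 2.21), a 3.17-fold higher signal, with adjusted p = 0.0438 by limma. Within replicate 1 it was 1.39 and within replicate 2 it was 1.93, and Epha3 ranked 139 among all genes by size of rise. This adjusted p lies close to the threshold, and the call was lost under several other settings.

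Epha7, a receptor expressed across the developing forebrain and tectum, had the next largest positive difference. Its signals were 6.19 and 6.03 in the knockout arrays and 4.99 and 4.95 in the control arrays. The gap between genotypes is wide against the spread within each. With a difference of 1.14 (SE 0.20, 95% interval 0.65 to 1.62), adjusted p was 0.0823 by limma, short of the threshold. Leaving out knockout replicate 2 gave an adjusted p of 0.0447 by limma and leaving out control replicate 1 gave 0.0430. Each of these fits has 1 array in a genotype, assumed to vary like the other genotype's, so they add no support.

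Epha2, an EphA receptor best known in epithelia and in the lens, was the member farthest below control. It gave 5.35 and 5.07 in the knockout arrays and 6.66 and 6.20 in the control arrays, with no overlap. The difference was -1.22 (SE 0.25, 95% interval -1.81 to -0.64, adjusted p = 0.106 by limma), at -1.32 within replicate 1 and -1.13 within replicate 2. Without control replicate 2 it was -1.45 (adjusted p = 0.00475 by limma), in a fit with 1 control array, the higher one, and a spread taken from the knockout arrays and from other genes. A second, dim cluster of Epha2 had a difference of -0.22. Of the 7 listed lens markers, 0 were called, and they summed to 154.9 and 98.6 in the knockout arrays and 155.9 and 129.5 in the control arrays.

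The EphA receptors best known from the mouse retinocollicular map, Epha5 and Epha6, overlapped between genotypes. Epha5 gave 6.07 and 6.23 in the knockout arrays and 6.29 and 6.13 in the control arrays, a difference of -0.06 with a 95% interval of -0.55 to 0.44. For Epha6 the signals were 4.22 and 4.60 in the knockout and 4.55 and 4.34 in the control, a difference of -0.03 with an interval of -0.57 to 0.51. Epha4, which binds ephrins of both classes, gave 5.69 and 5.43 in the knockout arrays and 5.19 and 5.14 in the control arrays, apart but by only 0.39 (adjusted p = 0.556 by limma). The remaining 3, Epha1, Epha8 and Epha10, had differences of 0.22, -0.46 and 0.16, and the first of these and Epha8 were dim on all arrays. Both knockout signals of Epha8, at 3.57 and 3.51, lay below its control signals of 4.26 and 3.75. Clusters of Epha10 disagreed in sign, at 0.16, 0.42 and -0.06.

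EphB receptors bind ephrin-B ligands, and the 3 with a value, Ephb1, Ephb3 and Ephb4, all overlapped between genotypes. Ephb1, which in mouse directs ventrotemporal ganglion cell axons away from the midline at the chiasm, gave 4.44 and 4.66 in the knockout arrays and 4.87 and 4.22 in the control arrays. Its difference was 0.00 (SE 0.27). Ephb3, with Ephb2 a ventral-high receptor in mouse retina, gave 6.14 and 4.83 in the knockout arrays and 5.21 and 4.91 in the control arrays. Ephb4, best known as the receptor of veins, gave 7.09 and 5.58 in the knockout arrays and 6.45 and 6.16 in the control arrays. In both of these the first knockout array was the highest of the 4 and the second the lowest, and the differences were 0.43 (SE 0.42) and 0.03 (SE 0.47). The cluster that Ephb6 shares with Mon2 gave 4.87 and 4.89 in the knockout arrays and 5.31 and 4.93 in the control arrays.

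Slit3, Ephb3 and Ephb4 were the 3 members whose knockout arrays differed by over 1 log2 unit, and 0 members did so between the control arrays. In each the first knockout array was the higher, as it was for the periocular mesenchyme, pigment epithelium and lens sums given above. So it was for surface ectoderm genes (6 measured, 0 calls). These summed to 251.6 and 94.1 in the knockout arrays and 89.7 and 102.0 in the control arrays. The sums of the progenitor, ganglion cell, forebrain, optic stalk and glia, and macrophage lists were higher on the second knockout array. Endothelial genes (10 measured, 0 calls) summed to 770 and 496 in the knockout arrays and 749 and 647 in the control arrays. Kdr, the highest signal on that list, weighs heavily in these sums. It gave 8.38 and 7.90 in the knockout arrays and 9.19 and 8.84 in the control arrays. Without overlap 8 endothelial genes lay above control, against 10.1% of all genes, and 1, Kdr, lay below, against 35.1%. The median difference of the endothelial list was 0.79. Whether these tissues contributed to the 3 genes' signals was not tested.

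**Figure D3:**
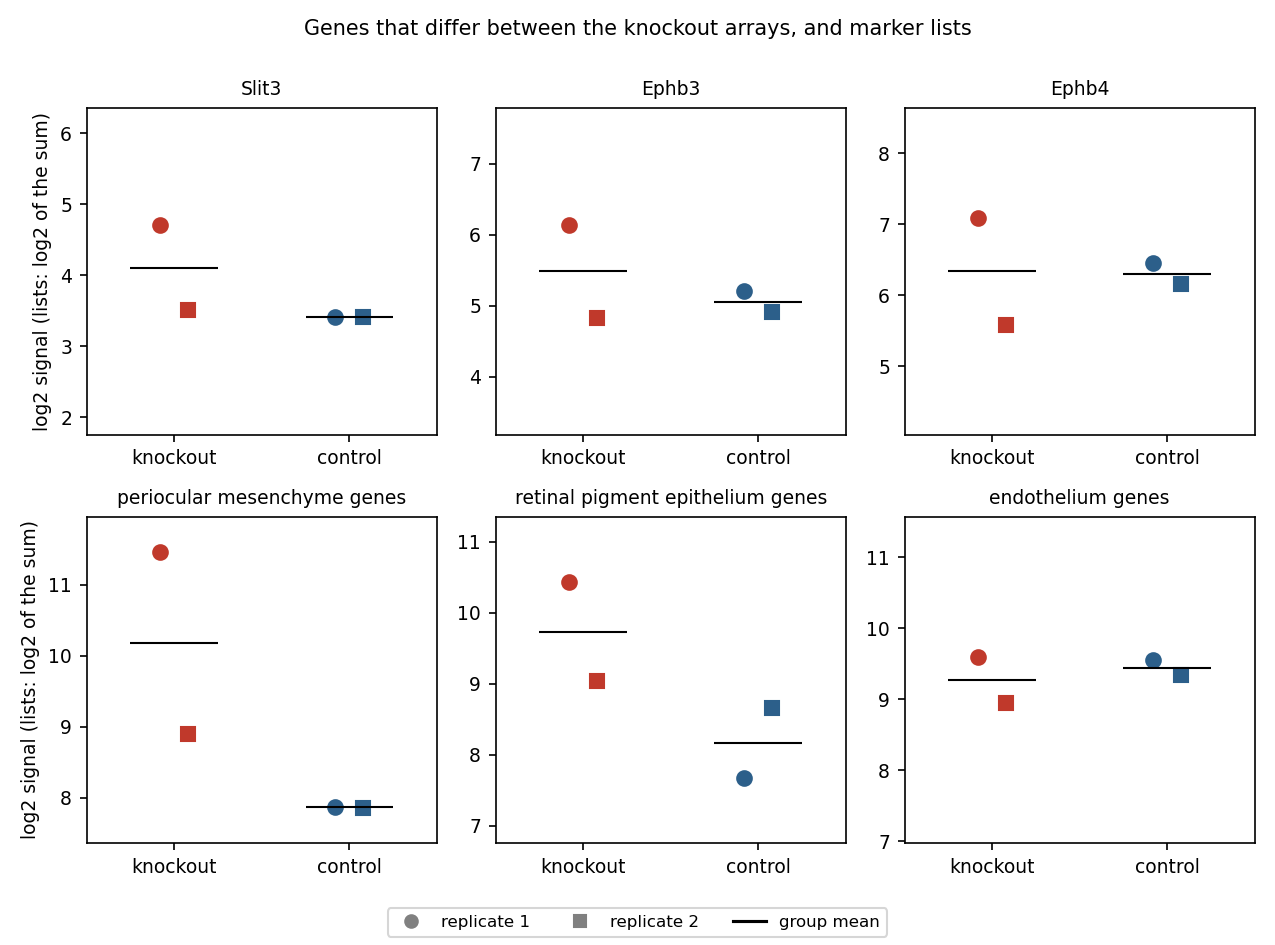
Upper panels show the log2 signal of Slit3, Ephb3 and Ephb4 on each array, and lower panels the log2 of the summed signal of the periocular mesenchyme, retinal pigment epithelium and endothelium marker lists. Knockout is on the left and control on the right, circles are replicate 1, squares replicate 2, and lines are group means. The first knockout array is the highest point in all 6 panels, for example 4.70 against 3.50 in the second for Slit3. The endothelium sum is weighted by Kdr, its highest signal, which lay below control, while 8 of the 10 endothelial genes lay above.

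Ephrin-A ligands are tethered to the membrane by a lipid anchor, and their 5 genes had 0 calls and a median difference of 0.21. Efna5, the nasal-high ligand of mouse retina, gave 5.89 and 5.57 in the knockout arrays and 5.54 and 5.49 in the control arrays. These do not overlap, but the gap between the nearest arrays is far smaller than the spread of the knockout, and the difference was 0.21 (SE 0.22, adjusted p = 0.706 by limma). Efna2, a partner of Efna5 in mapping, gave 5.71 and 5.31 in the knockout arrays and 6.05 and 5.48 in the control arrays. It overlapped, with a difference of -0.26 and an interval of -0.91 to 0.40. The differences of Efna1, Efna3 and Efna4 were 0.35, 0.21 and 0.08, and all overlapped.

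Ephrin-B ligands cross the membrane and can signal inward, and all 3 had non-overlapping groups with 0 calls. Of these 2 lay above control and 1 below, where 10.1% of all genes lay above and 35.1% below on this scale. Efnb3, the ephrin-B of the neural midline, came closest to the threshold. It gave 6.50 and 6.48 in the knockout arrays and 5.71 and 5.30 in the control arrays, a difference of 0.99 (SE 0.23, adjusted p = 0.138 by limma). Without control replicate 1 it was 1.19 (adjusted p = 0.0330 by limma), with the control reduced to its lower array and the spread taken from the knockout arrays and from other genes. Efnb1, a dorsal-high ligand in the retina, gave 7.09 and 6.59 in the knockout arrays and 6.28 and 6.00 in the control arrays, a difference of 0.70 (SE 0.25, adjusted p = 0.361 by limma). Efnb2, likewise dorsal in the retina and also the ligand of arteries, ran opposite. Its signals were 7.41 and 6.97 in the knockout and 8.02 and 7.65 in the control, with a difference of -0.65 (SE 0.26, adjusted p = 0.424 by limma) that was -0.62 and -0.68 within the replicate numbers. The ephrin-B genes thus leaned both ways, and none passed.

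Netrins are secreted relatives of laminin, and both measured genes overlapped. Ntn1 was dim on all 4 arrays, with 4.05 and 3.58 in the knockout and 3.85 and 3.73 in the control, and a difference of 0.03 (SE 0.22). Ntn4, a netrin of basement membranes, gave 4.78 and 5.08 in the knockout arrays and 5.05 and 4.86 in the control arrays, a difference of -0.03 (SE 0.22).

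The 6 netrin receptor genes had 0 calls and a median difference of 0.49, against -0.14 over all genes tested. Of the 6 differences 5 were positive, where 5608 of all 20252 genes had a positive one. Dcc, the attractive netrin-1 receptor, gave 6.33 and 6.99 in the knockout arrays and 6.31 and 6.34 in the control arrays. Only the second knockout array was apart from the rest, and the difference of 0.34 (SE 0.27) did not pass. Neo1, a Dcc relative that also binds RGM proteins, gave 8.08 and 8.01 in the knockout arrays and 7.79 and 7.45 in the control arrays. Its groups are apart by a small margin, with a difference of 0.42 (SE 0.23, adjusted p = 0.565 by limma).

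Unc5 receptors mediate repulsion from netrin. Unc5b, also a receptor of blood vessels, gave 6.74 and 6.42 in the knockout arrays and 5.92 and 5.69 in the control arrays, a difference of 0.77 (SE 0.23, adjusted p = 0.237 by limma). Unc5c gave 4.76 and 5.17 in the knockout arrays and 4.34 and 4.22 in the control arrays, a difference of 0.68 (SE 0.23, adjusted p = 0.307 by limma). Both were apart in the same direction, and so was Unc5d, with 3.93 and 4.42 in the knockout and 3.73 and 3.49 in the control. All 3 clusters of Unc5d had positive differences, at 0.56, 1.16 and 0.60. In all 3 only the second knockout array was above the dim level. The cluster at 0.60 overlapped, with 2.90 and 4.36 in the knockout and 2.54 and 3.52 in the control. Unc5a alone had a negative difference, -0.38, with overlapping groups (4.36 and 4.67 in the knockout, 5.21 and 4.59 in the control).

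Among genes that act with these ligands and receptors, 58 of 61 listed were measured. Of these 1 (1.72%) was called higher, against 0.257% of all genes, and 0 lower, against 0.326%, and their median difference was 0.04. The one called was Rgma, a membrane-anchored ligand of neogenin that repels chick retinal axons. It gave 6.19 and 6.16 in the knockout arrays, against 4.67 and 4.28 in the control arrays, and a second cluster had a difference of 1.48. The groups do not overlap, and the difference was 1.70 (SE 0.22, 95% interval 1.16 to 2.24, adjusted p = 0.0408 by limma). The call was lost with the mean of its clusters (adjusted p = 0.0561 by limma), the replicate block (0.0589), the filters on level (0.0751 and 0.0776), quantile normalization (0.0987) and centring on all clusters (0.136). Its relative Rgmb, chosen after its values were seen, gave 6.32 and 6.79 in the knockout arrays and 5.43 and 5.20 in the control arrays, a difference of 1.24 (adjusted p = 0.101 by limma). The 23 Eph and ephrin signalling partners, mostly exchange factors, adaptors and kinases, had 0 calls and a median of -0.04, and the 20 measured of 21 Slit and Robo partners had 0 calls and a median of 0.11. At an unadjusted p of 0.05 by limma, 2 partners (3.45%) were higher, against 3.6% of all genes, and 1 (1.72%), the EphA exchange factor Ngef, was lower, against 7.84%.

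Transcription and signalling factors that set retinal axes lie upstream of Eph and ephrin gradients in mouse and chick. Of 22 listed axis and midline crossing factors 21 were measured. Among these 0 were called higher, against 0.257% of all genes, and 1 (4.76%) was called lower, against 0.326%. That gene was Tbx3, a dorsal T-box factor, with 4.41 and 3.99 in the knockout arrays and 7.35 and 7.01 in the control arrays, a difference of -2.98 (SE 0.25, adjusted p = 0.0123 by limma). The 5 dorsal factors had a median difference of -1.54 and the 5 ventral ones -0.49, while the 8 crossing factors had 0.14. The median over all genes tested was -0.14. Of the 21 factors, 12 (57.1%) lay below control without overlap, against 35.1% of all genes, and 2 (9.52%) above, against 10.1%. At an unadjusted p of 0.05 by limma, 9 (42.9%) were lower, against 7.84%, and 2 (9.52%) higher, against 3.6%. These lists were chosen with earlier results of these data known. In the dorsal list 4 genes lay below control without overlap, where 35.1% of all genes did so. These were Tbx3, Tbx2 (-1.77), Tbx5 (-1.54) and Aldh1a1 (-1.44), and only Tbx3 passed. Bmp4, a dorsal signal, ran the other way, with 5.68 and 5.24 in the knockout arrays and 3.65 and 4.22 in the control arrays. Its difference was 1.52 (adjusted p = 0.0881 by limma). The dorsal genes other than Tbx3 were chosen here after their values were seen. Beside them, the dorsal ligands Efnb1 and Efnb2 had differences of 0.70 and -0.65, of opposite sign.

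Which guidance genes were called depended on the scale. With quantile normalization the adjusted p was 0.0919 for Robo3, 0.103 for Epha3 and 0.0987 for Rgma by limma, and 0 genes in the whole table passed. At an unadjusted p of 0.05, 2318 genes did. Centring on all transcript clusters also left 0 genes past the threshold and 1959 at an unadjusted p of 0.05. On the deposited scale Robo3 and Epha3 both passed, among 257 genes called higher and 158 lower, a split toward higher that the centred values do not have. Differences themselves moved little, with Robo3 at 2.19 and Epha3 at 1.74 after quantile normalization.

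**Figure D4:**
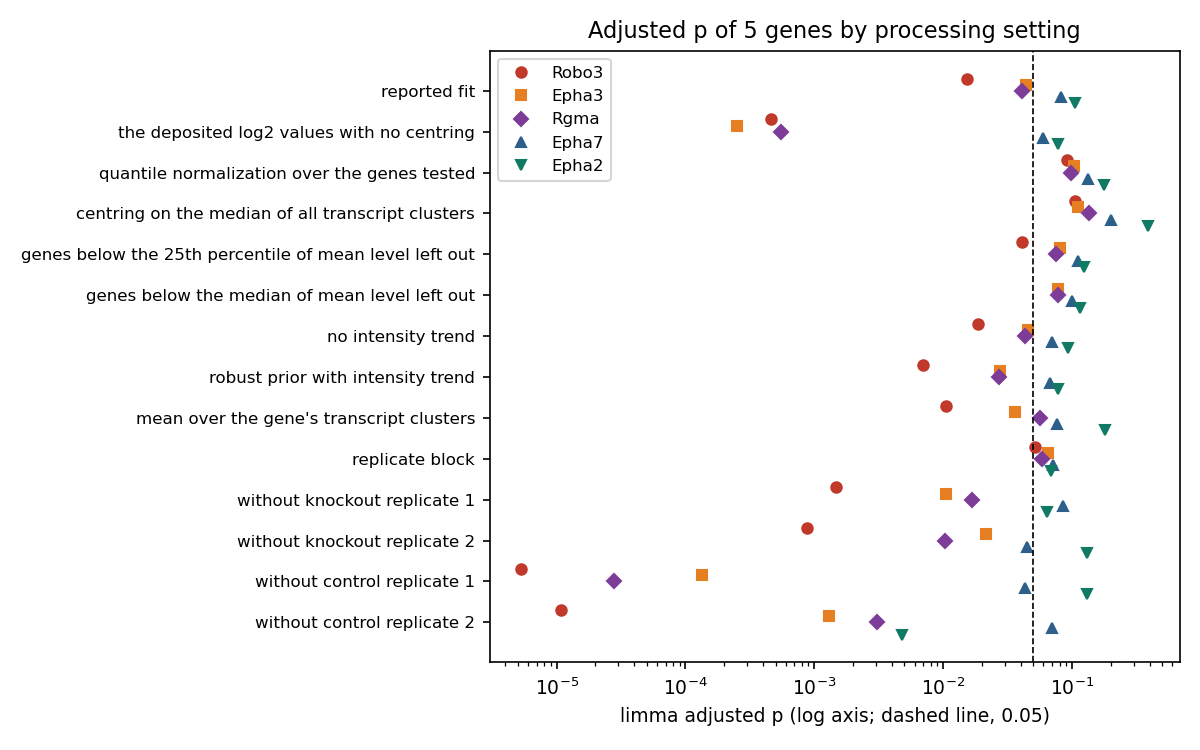
Limma adjusted p on a log axis for Robo3, Epha3, Rgma, Epha7 and Epha2 under each processing setting, with the threshold of 0.05 as a dashed line. Robo3 lies left of the line in the reported fit (0.0152) and right of it after quantile normalization (0.0919), and it has no point where genes below the median level were left out, since it was among them.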

How the data were processed

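Neuroretina RNA was depleted of ribosomal RNA, labelled with biotin and hybridised, per the labels' protocols. Each transcript cluster has a deposited log2 signal per array, and RMA, Partek and mm9 are named, without versions, in the submitters' processing notes. The deposited log2 scale differs between arrays, so each array was centred on its median over the genes tested and set back to the mean of the 4 medians. A single gene symbol was listed for 25513 of 112205 clusters, several for 2290 and none for 84402. The cluster of highest mean over the 4 arrays stood for a gene, a choice for 4 of the members. Promoters came from RefSeq (GRCm38.p6).

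The effect of genotype was fitted over 2 knockout and 2 control arrays by limma (version 3.58.1, under R 4.3.3) using lmFit and an eBayes prior that follows intensity, and the fit was tested on simulated data. Summed marker signals are sums of 2 to the power of the normalized log2 values. The number of arrays limits precision. Values were named for all members, Lhx2, and partners and axis factors past the threshold. Rgmb, Ngef, Bmp4, Tbx2, Tbx5 and Aldh1a1 fell outside this rule and were chosen after their values were seen. The members and lists were chosen with earlier results of these data known. Alternatives covered scale, filters, variance prior, several clusters, threshold, the replicate number as a term and each array left out.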

Additional observations from a re-analysis of the deposited data

How the results depend on the processing

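The 2 members called higher became 0 under quantile normalization, 0 after centring on all clusters, 1 with genes below the 25th percentile of level left out (Robo3), 0 with those below the median left out and 0 with the replicate block, and ran from 2 to 4 with each array left out. Members called lower, 0 in the reported fit, ran from 0 to 1 with each array left out, the 1 being Epha2 without control replicate 2. Slit3 and Epha7 passed without knockout replicate 2, and Efnb3 and Epha7 without control replicate 1. A fit without an array leaves 1 array in that genotype, assumed to vary like the other genotype's. Partners called higher, 1 in the reported fit, became 2 on the deposited scale and 0 under quantile normalization, all-cluster centring, both filters, the mean of a gene's clusters and the replicate block, and ran from 1 to 3 with each array left out. Partners called lower ran from 0 to 1, the 1 without control replicate 2. The members' median of 0.22 was 0.29 on the deposited scale, 0.31 after quantile normalization, 0.39 after all-cluster centring and 0.24 with the mean of clusters, and ran from 0.12 to 0.34 with each array left out, while the all-gene median ran from -0.22 to 0.03 over the settings.

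Robo3's adjusted p by limma ran from 5.3e-06 to 0.105 over the settings and that of Epha3 from 0.000135 to 0.112. Replicate numbers are shared between genotypes, and same-numbered arrays deviated together across genes (r = 0.479), but with 2 pairs and no label naming a shared litter or day the number was not taken as a pairing. With the replicate block 6 genes were higher and 11 lower in all, against 52 and 66, and adjusted p by limma was 0.0516 for Robo3, 0.0646 for Epha3 and 0.0589 for Rgma. Of single-gene results 445 kept direction and side of the threshold, 16 lost it, 6 gained it and 0 called differences changed sign. Signs of 13 uncalled members changed under some setting, the largest of them at 0.43 in the reported fit. With 2 arrays a genotype, differences of the size of most members could not be told from the spread.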
